A study of Mus musculus with 96 samples.

Results

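Cyp2d9, Cyp2d10, Cyp2d12, Cyp2d22, Cyp2d26, Cyp2d40 and Cyp2a12 are cytochrome P450 genes of mouse liver. They were taken as the listed Cyp2d and Cyp2a genes measured by a probe set with a single gene symbol, with the brightest probe set kept for each gene. All 7 of the 7 listed genes were measured, among 18193 genes on the array, and Cyp2d22 alone had a second probe set. The livers came from CD-1 mice of both sexes fed PB (known for this study as phenobarbital, an activator of the nuclear receptor CAR). The diet delivered a dose of 0 or 1 of 5 doses (0.15, then 1.5, 15 and 75, and at the top 150 mg/kg-day), and livers were taken after 2 days or after 7. CD-1 is an outbred stock, and the labels name no genetic change and no age. Each combination of sex, day and dose had 4 arrays, which gives 24 groups and 96 arrays, and the series title gives its purpose as dose modelling of the early steps by which CAR leads to liver tumours. The doses carry the unit of the design text, whereas the titles of the samples say ppm, and the files do not settle which holds. The labels do not say that the 4 arrays of a group are separate mice, so p-values measure the spread between arrays.

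P450 enzymes of the Cyp2 family sit in the membrane of the endoplasmic reticulum, hold a heme group, and oxidise drugs, steroids and other small lipids with electrons passed on by P450 reductase and cytochrome b5. Mice carry many closely related Cyp2d copies side by side on chromosome 15, and several differ between the sexes because growth hormone reaches the liver in pulses in males and more evenly in females, acting through the receptor Ghr, the kinase Jak2 and the transcription factor Stat5b. Cyp2d9 is a steroid hydroxylase known for high expression in male liver. Cyp2a12, on chromosome 7, hydroxylates testosterone and secondary bile acids. PB is known above all for raising Cyp2b genes through CAR. Which near-identical copies each Cyp2d probe set takes up was not tested, so each value belongs to the probe set annotated to the gene.

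RefSeq's promoter table (GRCm38.p6) held 5 of the 7 genes, and Cyp2d12 and Cyp2d22 were not matched in it. Letters before the start that this table gives are shown for the 4 Cyp2d genes found, because these related genes gave partly different readouts. Cyp2d9 differed by sex and had a weak slope over dose in females of day 2. Cyp2d26 had slopes on day 2 and differed by sex when doses were averaged. Cyp2d40 had a slope in females of day 2, and Cyp2d10 passed no test. Capitals mark a run of 19 bases shared by Cyp2d9, Cyp2d10 and Cyp2d40 and, in Cyp2d26, the run of 10 bases that all 4 hold. Cyp2d9 and Cyp2d40 are shown over 150 bases. RefSeq's gene records reach past the table's start by 59 bases for Cyp2d10 and 207 for Cyp2d26, so the stretches of these genes lie partly or wholly inside the annotated gene, and only 30 bases around the run are shown for each. Each is written 5′ to 3′ on the gene's strand.
Cyp2d9, chr15:82452227-82452376, plus strand: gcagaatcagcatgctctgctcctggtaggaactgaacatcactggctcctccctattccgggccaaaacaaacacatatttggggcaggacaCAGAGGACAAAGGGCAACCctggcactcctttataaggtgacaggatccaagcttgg
Cyp2d10, chr15:82407230-82407259, minus strand: ggacaCAGAGGACAAAGGGCAACCctggca
Cyp2d40, chr15:82764123-82764272, minus strand: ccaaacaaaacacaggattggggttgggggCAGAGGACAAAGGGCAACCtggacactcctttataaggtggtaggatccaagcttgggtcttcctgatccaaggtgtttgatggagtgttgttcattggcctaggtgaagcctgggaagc
Cyp2d26, chr15:82794258-82794287, minus strand: cctcctccctCTTTATAAGGgaccaggttc

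The 19-base run CAGAGGACAAAGGGCAACC was held, on either strand of the 250 bases before the start, by 3 of the 32851 promoters in the table (0.00913%), which were those of Cyp2d9, Cyp2d10 and Cyp2d40. The 10-base run CTTTATAAGG, a TATA-like stretch, was held by 27 of them (0.0822%). The shared run ended 38 bases before the table's start of Cyp2d9, 41 before that of Cyp2d10 and 101 before that of Cyp2d40. Aligned over 250 bases, Cyp2d9 and Cyp2d10 were identical at 82.8% of columns, against 53.6% for Cyp2d9 and Cyp2d26 and 47.9% for Cyp2d9 and Cyp2a12. The motif TTCNNNGAA, the palindrome bound by STAT factors, was searched on both strands and lay in 0 of the 5 members' windows and in 7.0% of all promoters. The nuclear receptor half-site AGGTCA, searched in the same way, lay in 0 of 5 and in 14.0%. Of these 250-base windows, that of Cyp2d10 lay inside the annotated gene for 59 bases and that of Cyp2d26 for 207. These counts and identities describe letters in the windows and nothing beyond them.

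The members fell into a bright and a dim group on the array's log2 scale, where array medians ran from 5.34 to 5.44. Averages over the 96 arrays were 13.35 for Cyp2d10, 12.82 for Cyp2d26, 12.56 for Cyp2d9, 12.38 for Cyp2a12 and 11.81 for Cyp2d22, against 5.84 for Cyp2d12 and 5.33 for Cyp2d40. Probe sets differ in brightness at equal RNA, so these levels place each probe set on the array and do not rank the genes. Every array's Cyp2b10, the P450 gene that PB is best known to raise, was examined first as a check of dosing. Cyp2b10 rose in females of day 2 from 8.15 ± 0.80 (SD, n = 4) at dose 0 to 13.58 ± 0.03 at 150, and its values at 15, 75 and 150 passed the test in both sexes on both days. Xist, the RNA of the inactive X chromosome, lay between 12.00 and 12.50 in every female array and between 4.63 and 5.89 in every male array. One pair of male day 2 arrays went against its labels. Replicate 1 of dose 15 had Cyp2b10 at 13.66, where the other 3 arrays of that group lay between 11.07 and 11.29, and replicate 1 of dose 75 had 10.98, where the other 3 lay between 13.19 and 13.36. The first lay above those dose 75 arrays and within the arrays of dose 150 (13.44 to 13.70), and the second lay just below those dose 15 arrays. Values below keep the labels, and the same members passed the test without this pair except where stated. Of 6 hepatocyte markers 5 were measured, and their summed level lay between 16.62 and 16.75 in every array of doses 0 and 150.

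In this report a gene is said to have risen or fallen when limma's moderated test on the log2 values, fitted over all 96 arrays and adjusted by Benjamini-Hochberg over 18193 genes, gave an adjusted p under 0.05. At 150 against 0 the test called 5.46% of all genes in females and 4.9% in males on day 2, and 2.45% and 3.04% on day 7. Of the 7 members, 1 passed in females of day 2, 0 in males of day 2, and 1 in each sex on day 7. With 7 genes, these counts are not read as different from those shares. At 75 the shares of all genes were 0.451% in females and 0.44% in males on day 2, with 0 of 7 members, and 0.764% and 0.247% on day 7, with 1 of 7 members in each sex. At 15 they were 0.022% in females of each day, 0.0385% in males of day 2 and 0.011% in males of day 7. At 1.5 they were 0% in all 4 sets, and at 0.15 they were 0% in 3 sets and 0.0055% in males of day 7. No member passed at 15 or below by this test.

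Cyp2d12 rose late and steeply, in both sexes, at the 2 highest doses of day 7 and at none on day 2. In females of day 7 the 4 dose 0 arrays read 5.06, 5.22, 5.53 and 5.65, the dose 75 arrays 6.08, 6.28, 6.32 and 7.62, and the dose 150 arrays 7.19, 7.76, 7.80 and 8.78. No array of 75 or 150 overlapped the controls. In males of day 7 the controls read 5.17, 5.29, 5.31 and 5.45, the dose 75 arrays 6.31, 6.37, 6.51 and 6.99, and the dose 150 arrays 6.86, 7.01, 7.25 and 7.78. Here too every array at the 2 highest doses lay above every control. The Cyp2d12 controls of both sexes and days were dim, within the 4.63 to 5.89 of Xist in male arrays. Whether they stood above background was not tested. The folds of Cyp2d12, its day 2 changes and its difference between days carry that limit.

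The female mean of Cyp2d12 went from 5.37 ± 0.27 (SD, n = 4) to 6.57 ± 0.71 at 75, a log2 change of 1.21 ± 0.21 (SE; limma adjusted p = 0.000379). At 150 it reached 7.88 ± 0.66, a change of 2.52 ± 0.21 or 5.73-fold (limma adjusted p = 4.47e-15). The male mean went from 5.31 ± 0.11 to 6.54 ± 0.31 at 75, a change of 1.24 ± 0.21 (limma adjusted p = 0.000218), and to 7.22 ± 0.40 at 150, a change of 1.92 ± 0.21 or 3.77-fold (limma adjusted p = 1.9e-10). Between 0.15 and 15 the group means of day 7 stayed between 5.46 and 5.84 in females and between 5.59 and 5.67 in males, with none past the threshold. The female call at 75 was lost when the female day 7 arrays were fitted alone (limma adjusted p = 0.0807). At that dose replicate 4, at 7.62, stood apart from the other 3 arrays. The female call at 150 was kept in that fit, at a limma adjusted p of 9.19e-06.

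On day 2 the same gene moved little. Female controls read 5.12, 5.27, 5.28 and 5.72 and the dose 150 arrays 5.37, 5.48, 5.98 and 6.30, with overlap. Male controls read 5.36, 5.56, 5.59 and 5.70 and the dose 150 arrays 5.75, 5.93, 5.94 and 6.01, without overlap. The changes at 150 were 0.43 (95% interval 0.01 to 0.86; limma adjusted p = 0.298) in females and 0.36 (interval −0.07 to 0.78; limma adjusted p = 0.438) in males, neither past the threshold.

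The difference between the days was tested itself. The response of Cyp2d12 at 150 was larger on day 7 than on day 2 by 2.08 ± 0.30 in females (limma adjusted p = 2.26e-05) and by 1.56 ± 0.30 in males (limma adjusted p = 0.00645). This contrast called 0.874% of all genes in females and 0.132% in males, and Cyp2d12 was the 1 of 7 members called in each. Cyp2b10, by comparison, differed between the days by 0.08 ± 0.57 in females and −0.05 ± 0.57 in males, with neither past the threshold. The response of Cyp2d12 on day 7 was 0.60 lower in males than in females (95% interval −1.21 to 0; limma adjusted p = 0.997), so no sex difference was shown and one of up to 1.21 lay inside the interval. The sex contrast of the response called 0.0055% of all genes on day 2 and 0.0879% on day 7, and 0 of 7 members in each.

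**Figure D1:**
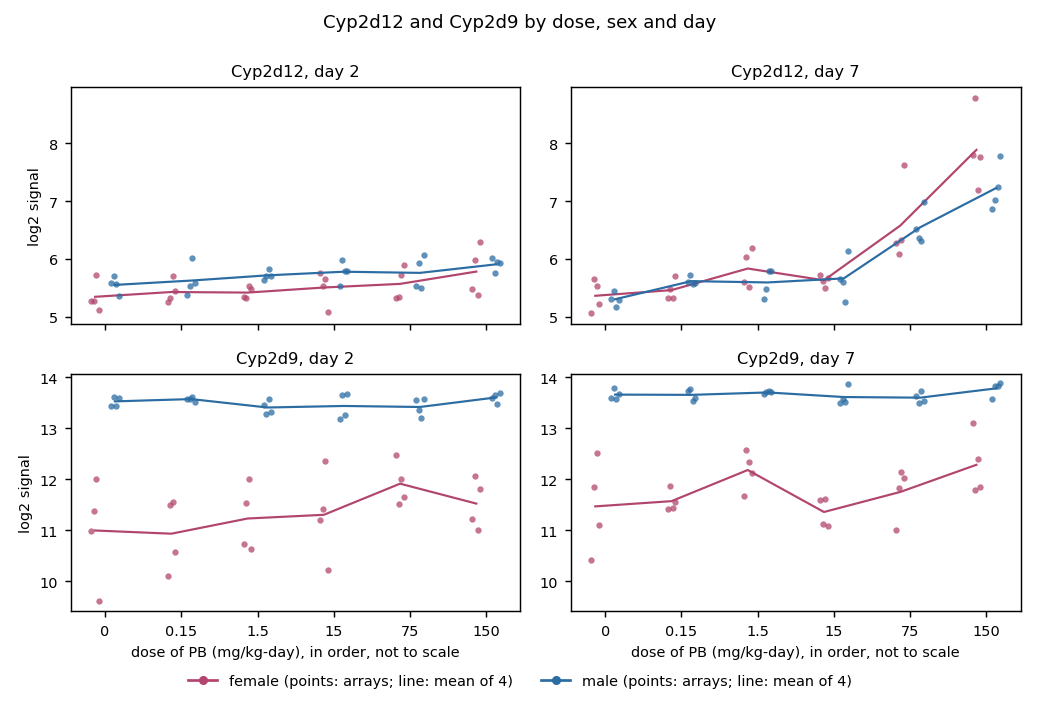
Log2 signal of Cyp2d12 and Cyp2d9 in each array (points) with the mean of 4 arrays (lines), by dose of PB in mg/kg-day (doses in order, not to scale), for females and males on days 2 and 7. Cyp2d12 leaves the level of its controls at 75 and 150 on day 7 in both sexes, and every male array of Cyp2d9 lies above every female array at each dose.

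Over the 24 group means, the genes most like Cyp2d12 were Pnliprp1, a relative of pancreatic lipase (Pearson r = 0.94, Spearman rho = 0.73), the receptor gene Tnfrsf19 (r = 0.87) and the TGF-beta receptor gene Tgfbr2 (r = 0.86). Over the 20 differences from dose 0 of the same sex and day, 3 genes led by r. They were Pnliprp1 (r = 0.93, rho = 0.58), Dclre1a (r = 0.89, rho = 0.90) and Abhd18 (r = 0.89, rho = 0.88). By rho, Pnliprp1 was thus the least alike of these 3. The points share controls and arrays and the genes were ranked for likeness, so these values are descriptions. Markers of other liver cells also moved in the male day 7 comparison. Of 7 Kupffer cell markers, 2 rose, which were Cd5l (log2 change 1.10 ± 0.27) and Adgre1 (0.77 ± 0.22), and their summed log2 level lay between 12.19 and 12.87 at dose 0 and between 13.06 and 13.67 at 150. Of 5 stellate cell markers, 3 fell (Lrat, Reln and Dcn), and the summed level lay between 12.58 and 12.93 at dose 0 and between 12.32 and 12.52 at 150. Of 2 neutrophil markers, 1 rose (S100a8), with the sum between 6.99 and 8.57 at dose 0 and between 7.37 and 12.91 at 150. Of 6 sinusoidal endothelial markers, 1 fell (Stab2, by 0.49 ± 0.14), with the sum between 11.91 and 12.11 at dose 0 and between 11.80 and 12.01 at 150. In females of day 7, where Cyp2d12 changed most, 0 of 7 Kupffer cell markers, 0 of 5 stellate cell markers, 0 of 6 sinusoidal endothelial markers and 0 of 2 neutrophil markers passed the test. Their summed levels lay between 12.80 and 13.02 at dose 0 and between 12.97 and 13.56 at 150 for Kupffer cells. For stellate cells they lay between 12.93 and 13.03 and between 12.61 and 12.82, and for neutrophils between 7.52 and 8.89 and between 8.44 and 10.87. For sinusoidal endothelium they lay between 12.15 and 12.36 and between 11.99 and 12.27. Apoa1 was the 1 of 5 hepatocyte markers that passed there, and it fell by 0.15 ± 0.04. The part of cell makeup in the result was not tested, and in whole liver fewer cells of a type and less RNA per cell cannot be told apart.

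Cyp2d9 separated the sexes completely. At dose 0 of day 2 the females read 9.62, 10.98, 11.38 and 12.00 and the males 13.44, 13.44, 13.60 and 13.62. At dose 0 of day 7 the females read 10.42, 11.10, 11.84 and 12.51 and the males 13.58, 13.60, 13.67 and 13.78. No female array reached a male one, and the females were far more widely spread than the males.

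The male mean exceeded the female mean at dose 0 by 2.53 ± 0.32 on day 2, which is 5.78-fold (limma adjusted p = 8.99e-09), and by 2.19 ± 0.32 on day 7, which is 4.55-fold (limma adjusted p = 4.37e-07). The test called 2.06% of all genes between the sexes on day 2 and 6.71% on day 7, and Cyp2d9 was the 1 of 7 members past the threshold on each day. Over all doses and both days the 48 female arrays ran from 9.62 through a median of 11.58 to 13.11, and the 48 male arrays from 13.17 through 13.59 to 13.89. The mean difference at each of the 12 pairs of dose and day lay between 1.49 and 2.64, and none of the 12 pairs overlapped. Averaged over the 6 doses, a contrast chosen after the data were seen, males were higher by 2.18 ± 0.13 on day 2 and 1.90 ± 0.13 on day 7. That averaged contrast called 22.3% and 35% of all genes, and on day 2 it also called Cyp2d12 when the 2 arrays at odds with their labels were left out.

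Dose moved Cyp2d9 little in males, whose group means stayed between 13.41 and 13.78. Female means of day 2 were 11.00 ± 1.01 at dose 0, 10.93 ± 0.71 at 0.15, 11.23 ± 0.65 at 1.5, 11.30 ± 0.87 at 15, 11.91 ± 0.42 at 75 and 11.52 ± 0.50 at 150. The slope over the 6 doses in order was 0.16 per step (95% interval 0.05 to 0.27; limma adjusted p = 0.043). That call was weak: it was lost when the female day 2 arrays were fitted alone (adjusted p = 0.254) and when any 1 of 10 of the 24 arrays was left out, with slopes from 0.10 to 0.21. Those arrays were replicates 1 and 4 of doses 0, 0.15 and 1.5, replicates 1 and 3 of dose 75, and replicates 2 and 4 of dose 150. The SE of this slope was 0.05 with the spread shared by all groups and 0.08 with female day 2 arrays alone. The less spread male arrays enter the shared spread and narrow the female intervals given here. On day 7 the female change at 150 was 0.82 (interval 0.18 to 1.45) and did not pass (limma adjusted p = 0.186), though leaving out 1 array at a time moved it widely. It was 0.47 without control replicate 1 (limma adjusted p = 0.623), 0.54 without replicate 1 of dose 150, and 1.16 without control replicate 3, the one such fit that passed (limma adjusted p = 0.0373). The difference between the sexes in the response at 150 on day 7 was −0.69 (interval −1.58 to 0.20) and was not past the threshold.

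Across the 24 group means, Cyp2d9 was most like the male-biased fatty acid hydroxylase gene Cyp4a12a (r = 0.99, rho = 0.98), the erythroid heme synthesis gene Alas2 (r = 0.98) and Mtmr7 (r = 0.96). The separation of the sexes sets most of that likeness. Over the 20 differences from dose 0, which hold no sex level, Cyp4a12a was again the most alike (r = 0.80, rho = 0.74). Within groups, after each group's mean was taken out, the 96 arrays gave r = 0.69 (rho 0.51) with Il1rap and 0.64 (rho 0.56) with Cyp4a12a. Arrays high in Cyp2d9 for their group thus tended to be high in Cyp4a12a. Group SDs of Cyp2d9 ran from 0.20 to 1.01 in females and from 0.03 to 0.26 in males, so female arrays weigh most in r. The likeness was not computed for each sex alone. Of 14 other male-biased liver genes listed from earlier knowledge, 9 were higher in males at dose 0 on day 2 and 13 on day 7, and 0 were lower. Their median difference was 1.23 on day 2 and 1.26 on day 7, against 0 and −0.01 over all genes. Of 15 female-biased genes, 11 and 12 were lower in males, with median differences of −2.51 and −3.40. Both lists hold genes picked for known sex bias, with earlier results of these data known. Their counts were thus largely set in advance and are no separate support for the result of Cyp2d9.

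Cyp2d26 fell modestly on day 2. In females of day 2 the controls read 12.86, 12.89, 12.91 and 13.01, the dose 75 arrays 12.64, 12.70, 12.70 and 12.78, and the dose 150 arrays 12.37, 12.45, 12.68 and 12.85. Neither dose overlapped the controls, the highest array at 150 lying just below the lowest control. The change at 150 was −0.33 ± 0.08, or 1.26-fold lower (limma adjusted p = 0.00731). The call was lost without replicate 1 of dose 150 (limma adjusted p = 0.0632) or replicate 2 (0.108), where the change was −0.28 and −0.26. In the same comparison 2 of 6 sinusoidal endothelial markers fell (Stab2 and Clec4g), with a summed level between 11.95 and 12.27 at dose 0 and between 11.75 and 12.15 at 150. Of 2 neutrophil markers S100a8 rose, with the sum between 7.62 and 9.49 at dose 0 and between 9.60 and 10.94 at 150. None of 5 stellate cell markers passed, while their sum lay between 12.88 and 12.99 at dose 0 and between 12.46 and 12.70 at 150. The part of these in the fall of Cyp2d26 was not tested.

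All 6 doses together gave a clearer picture of Cyp2d26. Female means of day 2 ran 12.92, 13.02, 12.94, 12.82, 12.70 and 12.59 from dose 0 to 150, a slope of −0.08 per step (95% interval −0.11 to −0.05; limma adjusted p = 4.26e-05). Male means of day 2 ran 12.67, 12.82, 12.75, 12.75, 12.55 and 12.51, a slope of −0.05 (interval −0.08 to −0.02; limma adjusted p = 0.0318). The male slope was lost in the fit of its own arrays alone (adjusted p = 0.0808) and without any 1 of 7 arrays, which were control replicates 3 and 4, replicate 1 of dose 0.15, replicates 2 and 3 of dose 75, and replicates 1 and 4 of dose 150. Without the 2 arrays at odds with their labels, its adjusted p was 0.00928. On day 7 the slopes were −0.04 in each sex, with intervals of −0.07 to −0.02 in females (limma adjusted p = 0.0608) and −0.07 to −0.01 in males (0.121).

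The trend test called 8.73% of all genes in females and 6.04% in males on day 2, and 4.35% and 4.46% on day 7. Members past it numbered 3, 1, 2 and 1 of 7 in the same order. Cyp2d26 was also the other member that differed between the sexes when doses were pooled. Its male mean was lower in all 12 pairs of dose and day, by 0.06 to 0.25, and 2 of those pairs did not overlap. At dose 0 alone the differences of −0.25 on day 2 and −0.22 on day 7 were not past the threshold (limma adjusted p = 0.12 and 0.106). Averaged over doses they were −0.16 ± 0.03 on each day, past it on both (limma adjusted p = 0.000232 and 6.85e-05), in the contrast that called 22.3% and 35% of genes. In the same contrast 7 of 7 Kupffer cell markers were lower in males on each day, with median differences of −0.41 and −0.40. So were 3 of 5 stellate cell markers on each day (medians −0.17 and −0.18) and 3 and 2 of 6 sinusoidal endothelial markers (medians −0.17 and −0.09). At dose 0, the summed Kupffer cell level lay between 13.01 and 13.50 in females and between 12.62 and 13.84 in males on day 2, and between 12.80 and 13.02 and between 12.19 and 12.87 on day 7. For stellate cells it lay between 12.88 and 12.99 in females and between 12.53 and 12.75 in males on day 2, and between 12.93 and 13.03 and between 12.58 and 12.93 on day 7. None of the Kupffer or stellate cell markers passed between the sexes at dose 0. Of the 6 sinusoidal endothelial markers, 0 passed there on day 2 and 1 on day 7 (Clec4g, lower in males). The part of these markers in the sex differences of Cyp2d26 and Cyp2d9 was not tested.

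The genes whose group means were most like those of Cyp2d26 were Ugt3a2, a glycosyltransferase gene (r = 0.93), Acadm, the medium-chain acyl-CoA dehydrogenase of fatty acid oxidation (r = 0.92), and Hykk (r = 0.92). Over differences from dose 0 they were Retsat, Zfand6 and Serpinf1, each with r = 0.91.

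Cyp2d40, a neighbour of Cyp2d26 with no protein-coding gene between them in RefSeq's order, gave a dim signal near the middle of the array. Its arrays ran from 4.76 to 6.01, close to the 4.63 to 5.89 of Xist in male arrays. Whether its signal stood above background was not tested, and its slope and its likeness to Cyp2d26 carry that limit. Female means of day 2 ran 5.52, 5.54, 5.34, 5.28, 5.09 and 5.12 from dose 0 to 150. The slope was −0.10 per step (95% interval −0.15 to −0.04; limma adjusted p = 0.0163), and it missed the threshold without replicate 1 (0.0699) or replicate 2 (0.0554) of dose 150. The 4 female controls read 5.39, 5.54, 5.56 and 5.58 and the 4 arrays of dose 150 read 4.87, 4.96, 5.26 and 5.39, so the groups touched at 5.39. The change of −0.40 (interval −0.73 to −0.07) was not past the threshold (limma adjusted p = 0.183). Male means of day 2 also ended lower at 150, by 0.25 (interval −0.58 to 0.08), and on day 7 the changes were −0.06 in females and −0.13 in males, none past the threshold.

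Array by array, Cyp2d26 and Cyp2d40 went together. Once each group's mean was taken out, their r over 96 arrays was 0.50 (rho 0.51), from 0.28 to 0.63 in the 4 sets of sex and day, and Cyp2d40 ranked second of all genes by likeness to Cyp2d26. This likeness within groups was examined after the values were seen. The pair shares arrays and libraries, and no p is given.

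**Figure D2:**
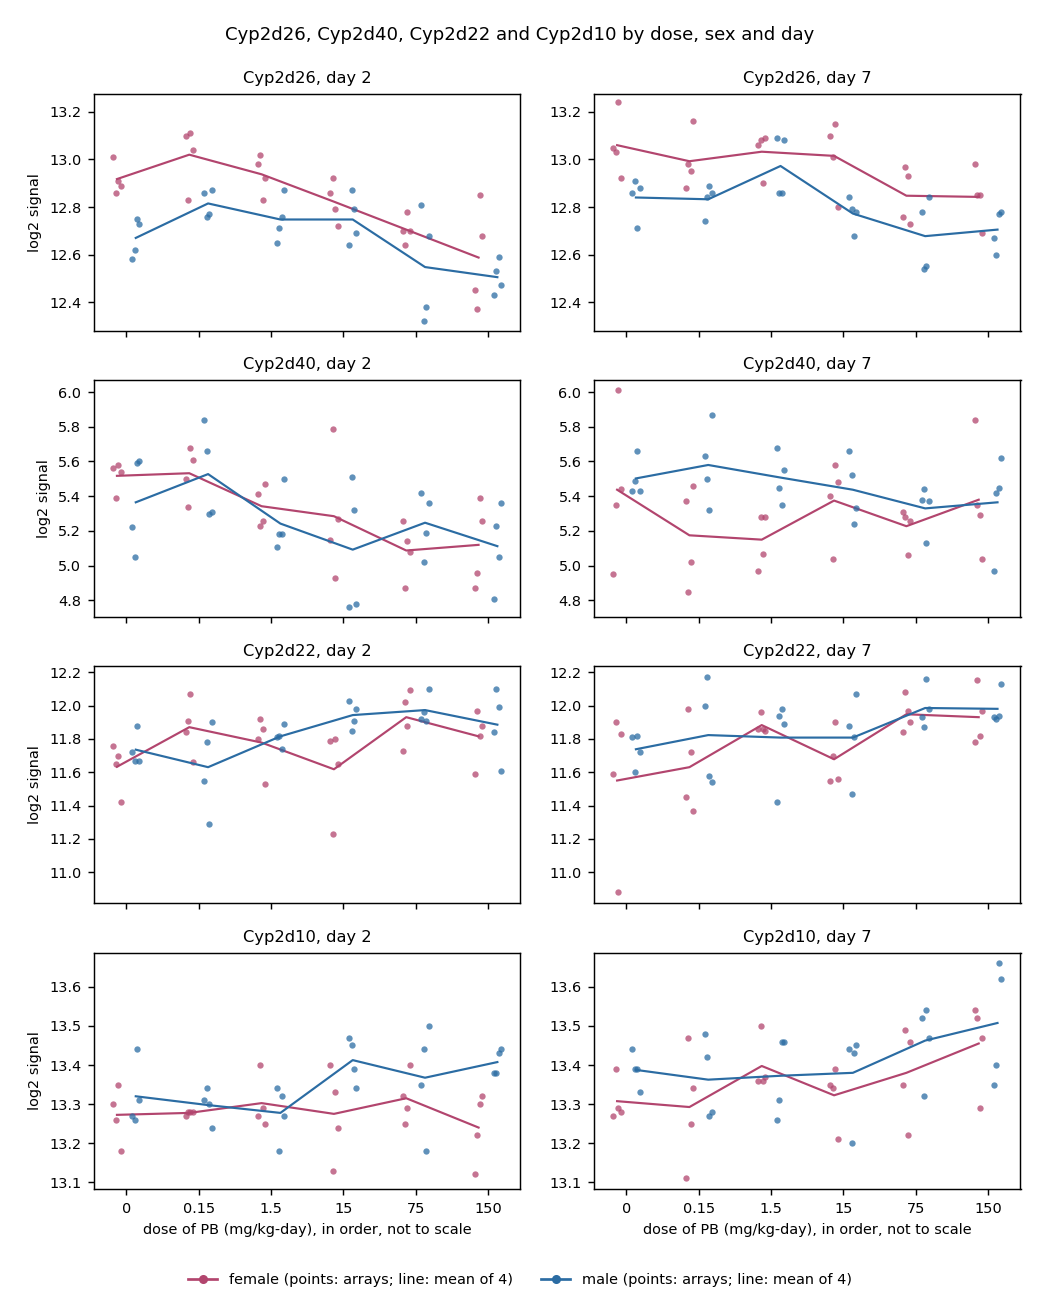
Log2 signal of Cyp2d26, Cyp2d40, Cyp2d22 and Cyp2d10 in each array (points) with the mean of 4 arrays (lines), by dose of PB in mg/kg-day (in order, not to scale), sex and day, with a separate vertical scale for each gene. Female Cyp2d26 of day 2 goes from a mean of 12.92 at dose 0 to 12.59 at 150, and Cyp2d10 stays between 13.11 and 13.66 in every array.

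Cyp2d22 and Cyp2d10 showed small changes at 150. Cyp2d22 had higher means at 150 than at 0 in all 4 sets, by 0.18 in females and 0.15 in males on day 2 and by 0.38 and 0.24 on day 7, with none past the threshold. The 95% interval of the female change on day 7 was 0.10 to 0.66. In females of day 7 the controls read 10.88, 11.59, 11.83 and 11.90 and the dose 150 arrays 11.78, 11.82, 11.97 and 12.15, with overlap and with replicate 3 of the controls far below the rest. The slope there was 0.08 per step (95% interval 0.03 to 0.12) at the edge of the threshold (limma adjusted p = 0.0499). It missed the threshold in the fit of those arrays alone (0.154), with the replicate number as a block (0.0523) and without the 2 arrays at odds with their labels (0.0535), and without any 1 of 15 of its 24 arrays. Those were control replicates 1 and 3, replicates 1 and 4 of dose 0.15, replicates 1, 3 and 4 of dose 1.5, replicates 2 and 3 of dose 15, and replicates 2, 3 and 4 of doses 75 and 150. Without control replicate 3 the slope was 0.04 (adjusted p = 0.334). The dimmer probe set of the gene gave the same slope in females (0.08, limma adjusted p = 0.0309) and was also called in males of day 7. Its changes at 150 on day 7 were 0.43 in females and 0.36 in males, neither past the threshold (limma adjusted p = 0.0985 and 0.164).

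Cyp2d10 passed no test at any dose. Its means at 150 differed from those at 0 by −0.03 in females and 0.08 in males on day 2 and by 0.15 and 0.13 on day 7, and the 95% intervals together ran from −0.17 to 0.28, so changes above about 0.28 lie outside them. Its spread within groups (pooled SD 0.09) was among the lowest 3.8% of genes, though close to the median of 0.08 for the 176 genes within 0.5 of its brightness. The contrast with Cyp2d9, whose promoter letters were the closest to its own of the 5 promoters aligned, can be read from the male and female means at dose 0 of day 2, which were 13.32 and 13.27 for Cyp2d10 and 13.53 and 11.00 for Cyp2d9.

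**Figure D3:**
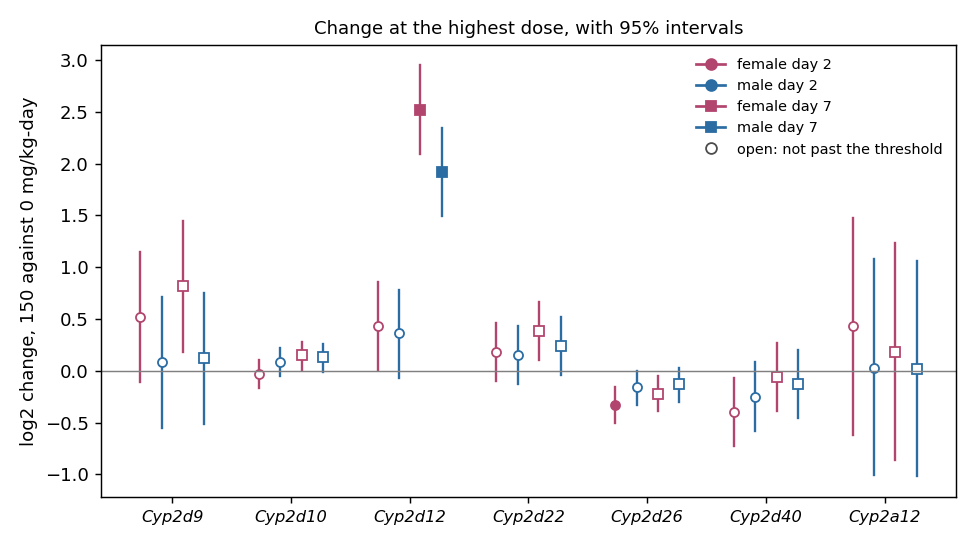
Log2 change at 150 against 0 mg/kg-day for each of the 7 genes (points) with 95% intervals (lines), by sex and day, where filled points passed the threshold. Cyp2d12 on day 7 (2.52 and 1.92) and Cyp2d26 in females of day 2 (−0.33) are the filled points, and the intervals of Cyp2a12 are the widest.

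Cyp2a12 passed no test, and arrays of the same group differed widely. The male controls of day 2 read 11.16, 11.64, 12.49 and 12.98 and the male arrays of dose 150 read 11.27, 11.71, 12.52 and 12.93, which is nearly the same spread. The female controls of day 2 read 11.08, 12.62, 12.73 and 13.28 and those of dose 15 read 10.34, 10.39, 11.82 and 12.52, while the 4 arrays of dose 150 lay between 12.71 and 12.92. In males of day 7 the controls read 12.83, 12.92, 13.22 and 13.43 and those of dose 15 read 10.89, 11.40, 11.78 and 12.91, so that 1 array of dose 15 reached the controls. The largest changes from dose 0 were at 15, by −1.35 in males of day 7 (95% interval −2.39 to −0.31; limma adjusted p = 0.779) and by −1.16 in females of day 2 (interval −2.20 to −0.12; limma adjusted p = 0.955). Neither passed, and the means at 75 and 150 lay nearer to the controls, or above them, in both sets. Group means ran from 11.27 to 13.12 in all. Changes at 150 were 0.43 in females and 0.03 in males on day 2 and 0.18 and 0.02 on day 7, each with a standard error of 0.52. The pooled SD within groups was 0.76, above that of 99.5% of genes, whereas the 332 genes within 0.5 of its mean brightness had a median SD of 0.11.

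The values of Cyp2a12 were unevenly spread. Over the 96 arrays they ran from 10.34 to 13.43 with a median of 12.75. Counted in steps of 0.5, there were 2 arrays from 10 to 10.5, 3 from 10.5 to 11, 14 from 11 to 11.5, 11 from 11.5 to 12, 5 from 12 to 12.5, 47 from 12.5 to 13 and 14 above 13. Under 12, the whole number next below the median, lay 30 arrays. The 30 low arrays were found in 18 of the 24 groups, with 8 in females of each day, 9 in males of day 2 and 5 in males of day 7. This level was set after the values were seen.

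**Figure D4:**
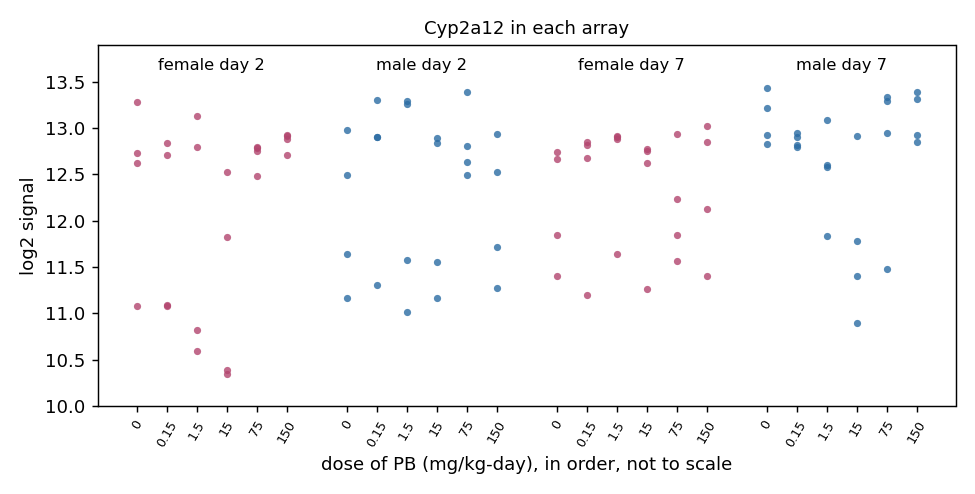
Log2 signal of Cyp2a12 in each of the 96 arrays (points), by sex and day and, within each, by dose of PB in mg/kg-day (in order, not to scale). Low arrays under 12 appear in 18 of the 24 groups, including controls, beside arrays near 13.

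The gene most like Cyp2a12 within groups was Cyp2g1, a P450 best known from olfactory tissue that lies with 2 protein-coding genes between them on chromosome 7 in RefSeq's order (GRCm38.p6). Their deviations from group means had r = 0.83 and rho = 0.82 over 96 arrays, and r from 0.81 to 0.90 in the 4 sets of sex and day. Cyp2g1 had a median of 6.48 (3.87 to 9.12) in the 30 arrays with Cyp2a12 under 12 and of 7.90 (5.33 to 9.72) in the other 66. The next genes in that ranking were Atp8b4 (r = 0.43) and Zfp626 (r = 0.38), well below. Cyp2f2, which RefSeq places beside Cyp2a12 with no protein-coding gene between, had r = 0.25, from −0.17 to 0.88 in the 4 sets. Over group means the most alike genes were Synm (r = 0.75), 4933426B08Rik (r = 0.73) and 4930543E12Rik (r = 0.71).

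A second pair of this kind lay on chromosome 15. Cyp2d22 and Cyp2d13, another copy of the cluster with 6 protein-coding genes between, had r = 0.81 and rho = 0.76 within groups, and r = 0.76 without the 2 arrays farthest from the median. Ndufa6, a subunit gene of respiratory complex I that is the direct neighbour of Cyp2d22, ranked second for it (r = 0.51) and seventh for Cyp2d10 (r = 0.57). Cyp2d22 and Cyp2d40 had r = −0.37, which was −0.24 without the 2 farthest arrays and ran from −0.58 to −0.04 in the 4 sets. Cyp2d9 and its direct neighbour Cyp2d10 had r = 0.25 and rho = 0.33, with r from 0.22 to 0.52 in the 4 sets. These points share arrays, and probe sets of near copies can share RNA, whose part in these values was not tested.

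**Figure D5:**
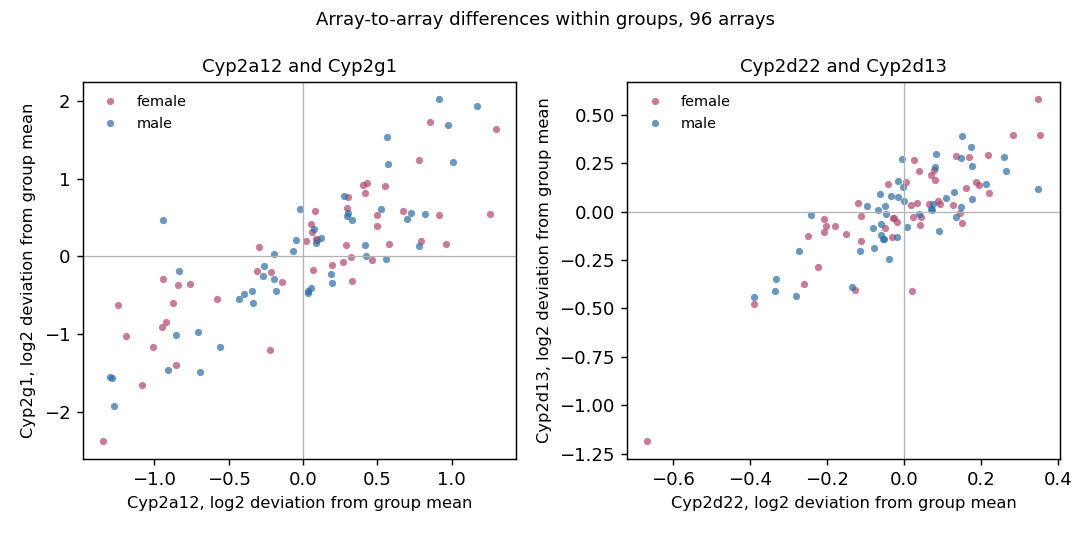
Deviation of each array from its group's mean on the log2 scale, for Cyp2g1 against Cyp2a12 and for Cyp2d13 against Cyp2d22 (96 arrays each, females and males in separate colours). Points rise together in both panels, with r = 0.83 and 0.81, and 1 female array lies far below the rest in the second panel.

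Of the 13 other Cyp2d, Cyp2a and neighbouring Cyp2 genes listed, 5 were measured by a probe set of their own (Cyp2d13, Cyp2d34, Cyp2f2, Cyp2g1 and Cyp2s1). At 150, Cyp2g1 rose in males of day 2 (log2 change 2.14 ± 0.67, limma adjusted p = 0.0457), which is 1 of 5, and 0 of 5 passed in the other 3 sets, where Cyp2g1 read 0.85 and 0.88 in females of days 2 and 7 and 1.13 in males of day 7. At dose 0 of day 2 the male mean of Cyp2g1 minus the female mean was −2.66 ± 0.67 (limma adjusted p = 0.0139). This difference and the rise in males of day 2 use the same male controls, so they are not separate results. At dose 0 of day 7 Cyp2g1 was not past the threshold between the sexes. On day 7 Cyp2f2, a P450 best known from lung, was higher in males by 0.23 ± 0.06 (limma adjusted p = 0.00923).

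Among 13 genes that serve P450 enzymes, the cytochrome b5 gene Cyb5a and the heme-binding membrane protein gene Pgrmc1 rose in all 4 sets at 150. Cyb5a rose by 0.29 ± 0.04 in females and 0.26 ± 0.04 in males on day 2 and by 0.24 and 0.22 on day 7. Pgrmc1 rose by 0.15 to 0.19. Alas1, the first enzyme of heme synthesis, also rose in females of day 2 (2.08 ± 0.52), and Cpox, a later enzyme of that route, fell by 0.62 ± 0.19 in males of day 2. In all, 3, 2, 2 and 2 of 13 rose and 0, 1, 0 and 0 fell in females and males of day 2 and of day 7. The list's median change lay between −0.06 and 0.13, against −0.03 to 0.00 for all genes.

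In the growth hormone route the receptor gene changed most often. Ghr fell in 3 of the 4 sets at 150. It fell by 0.41 ± 0.07 in females of day 2, fell by 0.30 ± 0.07 in males of day 2 and fell by 0.26 ± 0.07 in males of day 7. In females of day 7 its change of −0.22 did not pass (limma adjusted p = 0.0712). Igf1, the hormone's main secreted product of liver, fell by 0.23 ± 0.06 in females and fell by 0.21 ± 0.06 in males on day 7, and Stat5b fell by 0.43 ± 0.13 in females of day 2. Of the 12 measured, 2, 3, 1 and 2 fell and 0 rose in the same order of sets, in comparisons that called 5.46%, 4.9%, 2.45% and 3.04% of all genes. The list's median changes were −0.24, −0.17, −0.21 and −0.23, against −0.03 to 0.00 for all genes. Cyp2d9, a male-biased gene, gave changes of 0.52, 0.08, 0.82 and 0.12 in those sets, none past the threshold.

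Of 18 liver transcription factors, 1, 2, 2 and 2 fell and 0 rose in those same comparisons, with median changes of −0.18, −0.22, −0.11 and −0.13. Counts this small are not read against the shares of all genes. Ppara, the receptor that controls fatty acid oxidation genes, fell in all 4 sets, with changes of −0.70 to −0.55, and Nr1i3, which encodes CAR, fell by 0.86 ± 0.20 in males of day 7 (limma adjusted p = 0.00474). Of 14 male-biased genes other than Cyp2d9, 2, 0, 1 and 1 rose and 1, 1, 1 and 0 fell at 150, with median changes of −0.19, −0.28, −0.11 and −0.24. Elovl3 rose in females by 1.54 ± 0.45 on day 2 and 2.31 ± 0.45 on day 7, and Hsd3b5 fell by 2.01 ± 0.55 in females of day 2. In males, Cyp2u1 fell by 1.01 ± 0.25 on day 2 and Moxd1 rose by 2.83 ± 0.22 on day 7. Of 15 female-biased genes, 1, 2, 2 and 4 rose and 0 fell in the same order of sets. Those comparisons called 5.46%, 4.9%, 2.45% and 3.04% of all genes, and counts this small are not read against these shares. The list's median changes were 0.07, 0.25, 0.09 and 0.30. Prom1 rose in all 4 sets. The genes that rose in males included 2 of the Cyp2b family that PB is known to raise, Cyp2b9 on day 2 and Cyp2b13 on day 7.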

How the data were processed

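Liver RNA was hybridised to 1-colour arrays, and the deposited table gives log2 values for 45101 probe sets on 96 arrays; the authors' summarisation and normalisation are not given in these sources. Per the labels' protocols, total RNA was extracted with Trizol and amplified with biotin. Arrays were highly alike in scale (lower quartiles 3.91 to 4.09) and correlated at 0.9719 to 0.9959, so none was a copy. Of the probe sets, 34945 carried 1 gene symbol, 932 several, 9160 none and 64 were controls. The brightest single-symbol probe set stood for each of 18193 genes, with no filter on dim values.

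Group means of all 24 groups were fitted with limma 3.58.1 (R 4.3.3; 72 residual degrees of freedom), and 32 contrasts were tested two-sided with a threshold of 0.05. The trend is the slope over the order of the 6 doses. The sex contrast averaged over doses and the likeness within groups were added after the data were seen. The members and gene lists were chosen with earlier results of these data known. The fit was tested on simulated data of the same design, with normal noise and 1 spread per gene in all groups. Of 50 genes changed at each size, it recovered 14 at 1.25-fold, 46 at 1.5-fold, 49 at 2-fold and 50 at 4-fold. Spreads that differ between groups, as those of Cyp2d9 do, were not simulated. The number of arrays, 4 a group, limits precision. Genes named are the 7 members, at most 4 with the smallest adjusted p per list, Cyp2b10 and Xist, and the 3 most alike genes. Promoter letters came from RefSeq's GRCm38.p6 table and were aligned with Biopython 1.88. Alternatives were quantile scaling, the mean of a gene's probe sets, dim genes left out, groups fitted alone, another variance model, array weights, a replicate block, each array left out, the other Cyp2d22 probe set and the doubted pair of arrays left out.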

Additional observations from a re-analysis of the deposited data

Results flagged for a closer look

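The response of Cyp2d12 stands first here because it differed between the days by its own test. The response of Cyp2d12 at 150 was larger on day 7 than on day 2 by 2.08 in females (limma adjusted p = 2.26e-05) and by 1.56 in males (limma adjusted p = 0.00645).

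Of 168 groups of 4 arrays examined over the 7 genes, 11 held an array whose gap to the nearest other was above 0.829 of the group's range, and chance alone gives about 1 such group in 20. Cyp2a12 had 4, all in females and all low: 12.48 at dose 75 of day 2 (others 12.75 to 12.79), and on day 7 11.20 at dose 0.15, 11.64 at dose 1.5 and 11.26 at dose 15, where the other arrays lay between 12.62 and 12.91. Cyp2d10 had 2: 13.50 at dose 1.5 in females of day 7 (others 13.36 to 13.37) and 13.20 at dose 15 in males of day 7 (others 13.43 to 13.45). Cyp2d22 had 3: 11.96 in females and 11.42 in males at dose 1.5 of day 7, and 12.13 in males at dose 150 of day 7. Cyp2d12 had 1, at 7.62 in females at dose 75 of day 7 (others 6.08 to 6.32), and Cyp2d40 had 1, at 5.50 in males at dose 1.5 of day 2 (others 5.11 to 5.18).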

How the results depend on the processing

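The numbers of members past the threshold were recomputed under each alternative. Fitting only the groups compared moved 4 of them by over 1.5 times: for females of day 7 the count at 75 went from 1 to 0 and the trend count from 2 to 1, for males of day 2 the trend count from 1 to 0, and for males against females over the 6 doses of day 2 from 2 to 4, as Cyp2d10 and Cyp2d12 were added. It also took Cyp2d9 out of the female day 2 trend (3 to 2). Replicate numbers did not pair the arrays (mean correlation of same-numbered deviations 0.022, of others −0.007; in 0 of 60 pairs of groups was every correlation over 0.1), and the replicate block moved only the female day 7 trend count, from 2 to 1, as Cyp2d22 was lost. Quantile scaling, leaving out dim genes and array weights each added Cyp2d26 to the female day 7 trend (2 to 3). In the sex contrast over the 6 doses, array weights added Cyp2d10 on day 2 and leaving out dim genes added Cyp2d40 on day 7 (each 2 to 3). With the other Cyp2d22 probe set, chosen after the data were seen, the male day 7 trend count went from 1 to 2. Without the doubted pair, the female day 7 trend count stayed at 2 but held Cyp2d26 in place of Cyp2d22. Leaving out 1 array gave counts of 0 to 1 at 150 in females of day 2, 1 to 2 at 150 in females of day 7 (2 without control replicate 3), 1 to 3 for the trend in females of day 2 (1 without replicate 2 of dose 150) and of day 7, 0 to 1 for the trend in males of day 2, and 2 to 3 for the sexes over the 6 doses on each day. The sign at 150, with no call in any fit, turned in some such fits for Cyp2a12 (−0.02 to 0.71 in females and −0.27 to 0.34 in males on day 2; −0.07 to 0.50 and −0.07 to 0.13 on day 7), for Cyp2d10 in females of day 2 (−0.06 to 0.01) and for Cyp2d40 on day 7 (−0.22 to 0.13 in females, −0.22 to 0.00 in males). The causes were not tested.

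The change that 4 arrays a group can show differs by gene: the standard error of the change at 150 was 0.07 for Cyp2d10 and 0.52 for Cyp2a12.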
